A study of Mus musculus with 12 samples.

Results

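The comparison described here sets 3 libraries of mRNA bound to endoplasmic reticulum (ER)-labelled ribosomes from cells that received an siRNA against Lsg1 against 3 such libraries from cells that received a scramble siRNA. These 6 libraries were chosen by their labels (fraction ribosome-bound, organelle endoplasmic reticulum) from the 12 of the series. The other 6 hold whole-cell RNA set aside from the lysates before purification, 3 for each siRNA. All cells were mouse embryonic stem cells of the line Rpl31-FTA E14Tg2a.4, whose ribosomal protein Rpl31, part of the large subunit, is fused to a tag with an acceptor site for biotin, so the scramble cells carry the tagged ribosomes too. They were grown in serum with leukemia inhibitory factor. The split biotin ligase system ALIBi biotinylated ribosomes at the ER, and the biotinylated ribosomes were affinity purified and released with a protease. The replicates are labelled biological replicate 1 to 3 in each group, all from 1 cell line. The p-values thus measure the spread between its cultures, estimated over both fractions.

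Lsg1 is a cytoplasmic GTPase that acts late in the maturation of the large ribosomal subunit, where it helps to release the export adaptor Nmd3 before the subunit can enter translation. Ribosomes that translate secreted and membrane proteins are brought to the ER by the signal recognition particle and its receptor and dock on the Sec61 translocon. Disturbed ribosome assembly is known to stabilise p53 through free ribosomal proteins that bind its ubiquitin ligase Mdm2. None of the libraries holds RNA of all ribosomes, so a change of loading at the ER and a change of loading everywhere cannot be told apart, and in bulk RNA fewer cells of a type and less RNA per cell cannot be told apart either.

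The 6 ER-bound libraries held 40473706 to 48044994 counts in genes. The embryonic stem cell markers were present in all 6, where the 9 of them together summed to 10246 to 11102 CPM (counts scaled to library size, with TMM factors). Of 11 fibroblast or feeder markers, 7 lay under 1 CPM, and Fap and Lum had no count in any ER-bound library. Thy1 was present, at a mean of 41.7 CPM with scramble and 46.0 CPM with Lsg1 siRNA. Col1a1 stood at 6.26 and 5.95 CPM, Pdgfrb at 3.71 and 4.11 CPM, and Twist1 at 3.48 and 3.44 CPM. ER-bound scramble replicate 3 stood apart: the unnamed gene ENSMUSG00000119584 stood at 18595 CPM of the library total there, against 1158 to 1363 in the other 5. This gene was removed as ribosomal RNA-like in a setting described below. In a principal component analysis of the 6 libraries, the second component, with 23.8% of the variance, separated the siRNAs, and the first, with 26.0%, did not. The first ran in the order of the replicate numbers in both groups, from -20.2 to 15.6 with scramble and from -9.7 to 17.5 with Lsg1 siRNA.

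Lsg1 siRNA was followed by many small changes on ER-labelled ribosomes. Of 17702 genes tested, 465 rose and 245 fell, which is 4.01% in either direction, 2.63% higher and 1.38% lower (edgeR's quasi-likelihood test, adjusted p under 0.05 over all genes). The spread in this test was pooled over all 12 libraries, although both fractions came from the same lysates. In a fit of only the ER-bound libraries, 375 genes passed, 216 higher and 159 lower. The median size of a change that passed in the test with all 12 libraries was 0.19 on the log2 scale. Only 15 risen and 6 fallen genes changed by 1.5-fold or more, and 133 and 53 by 1.2-fold or more. Of the risen genes, 456 were protein-coding, and of the fallen genes 244. The groups of libraries did not overlap for 464 of the 465 risen and all 245 fallen genes, while over all genes tested this held for 12.5% upward and 8.95% downward. Genes that passed were picked for a difference between these same libraries. Their lack of overlap, here and for single genes below, is thus a description and adds no support of its own. The median GC content of the longest transcript was 51.6% for risen, 49.6% for fallen and 50.0% for all genes tested. Median CPM with scramble siRNA on ER-labelled ribosomes was 47.813 for risen, 54.596 for fallen and 11.975 for all genes tested. The lists below differ in level too, with medians of 44.968 CPM for p53 targets, 226.91 for naive pluripotency and 10.874 for solute carriers. Their shares of calls are set against all genes without matching for level, and the part of level in them was not tested. Once trends with transcript length and GC content were taken out by an offset, 497 genes rose and 421 fell, so that the share of rises was 54.1% against 65.5%. It was 51.6% to 59.7% with any 1 of the 12 libraries left out, and 71.2% when scaled to library totals alone. Without ER-bound scramble replicate 3, 305 rose and 213 fell, and 436 of these 518 were among the 710.

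**Figure D1:**
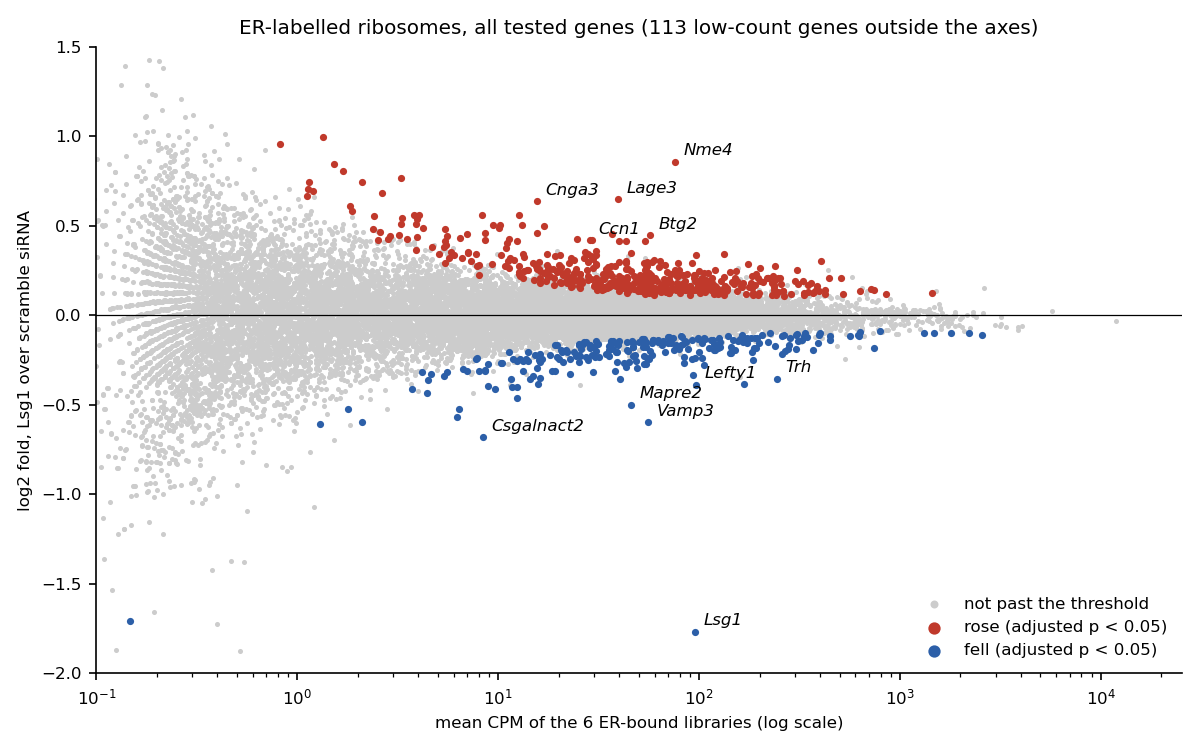
Log2 fold of Lsg1 over scramble siRNA on ER-labelled ribosomes (vertical axis) against the mean CPM of the 6 ER-bound libraries (log axis), with 1 point per gene. The 465 risen genes are red and the 245 fallen genes blue; 113 low-count genes, none of them past the threshold, lie outside the axes. Above 10 CPM, Lsg1 is the lowest of the fallen genes and Nme4 the highest of the risen genes.

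Lsg1 itself (ENSMUSG00000022538.21, chromosome 16) fell on ER-labelled ribosomes. It stood at 142, 149 and 151 CPM in scramble replicates 1 to 3 and at 35.4, 42.5 and 52.5 CPM in the Lsg1 siRNA replicates. All 3 knockdown libraries lay far below all scramble libraries, at a mean of 29.4% of the scramble level (log2 fold -1.77, SE 0.11, edgeR adjusted p = 6.3e-08). In whole-cell RNA from the same lysates the mean was 98.0 ± 15.1 CPM against 143 ± 6.38 CPM (SD, n = 3), 68.5% of the scramble level (log2 fold -0.55, SE 0.10, edgeR adjusted p = 0.245). The difference between the fractions passed its own test (log2 difference -1.22, SE 0.15, edgeR adjusted p = 0.0013). The whole-cell fall missed the threshold although all 3 knockdown libraries, at 83.5, 96.7 and 114 CPM, lay below the scramble libraries, at 136, 144 and 149 CPM.

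Of all 17702 genes, 4 (0.0226%) passed the test of the difference between fractions, 0.0113% in each direction. Besides Lsg1 these were Nme4, Lage3 and Vamp3. Either Lsg1 or Vamp3 lost its call in this test without any 1 of several libraries, which are given below. The test treated the libraries of both fractions as independent, although they came from the same lysates. Nme4, a mitochondrial nucleoside diphosphate kinase, stood at 58.2, 50.4 and 52.9 CPM in the scramble libraries and at 99.8, 95.1 and 98.2 CPM in the Lsg1 siRNA libraries on ER-labelled ribosomes. Every knockdown library was well above every scramble library (log2 fold 0.86, SE 0.04, edgeR adjusted p = 5.0e-09). In whole-cell RNA it stood at 61.3 ± 1.35 against 51.0 ± 0.52 CPM (SD, n = 3; log2 fold 0.27), and the difference between fractions was 0.59 (SE 0.06, edgeR adjusted p = 4.5e-04). Lage3, a subunit of the KEOPS complex that modifies transfer RNAs, stood at 32.0, 29.5 and 30.4 CPM with scramble siRNA and at 46.6, 49.0 and 48.9 CPM with Lsg1 siRNA. Its groups did not overlap (log2 fold 0.65, SE 0.04), and its whole-cell log2 fold was 0.14, a difference of 0.51 (SE 0.06, edgeR adjusted p = 0.0013). Vamp3, a vesicle SNARE of recycling endosomes, went the other way. It stood at 68.7, 67.2 and 65.2 CPM with scramble siRNA and at 44.7, 43.0 and 45.4 CPM with Lsg1 siRNA (log2 fold -0.59, SE 0.04). The whole-cell log2 fold of Vamp3 was -0.20, and the difference was -0.39 (SE 0.06, edgeR adjusted p = 0.026).

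**Figure D2:**
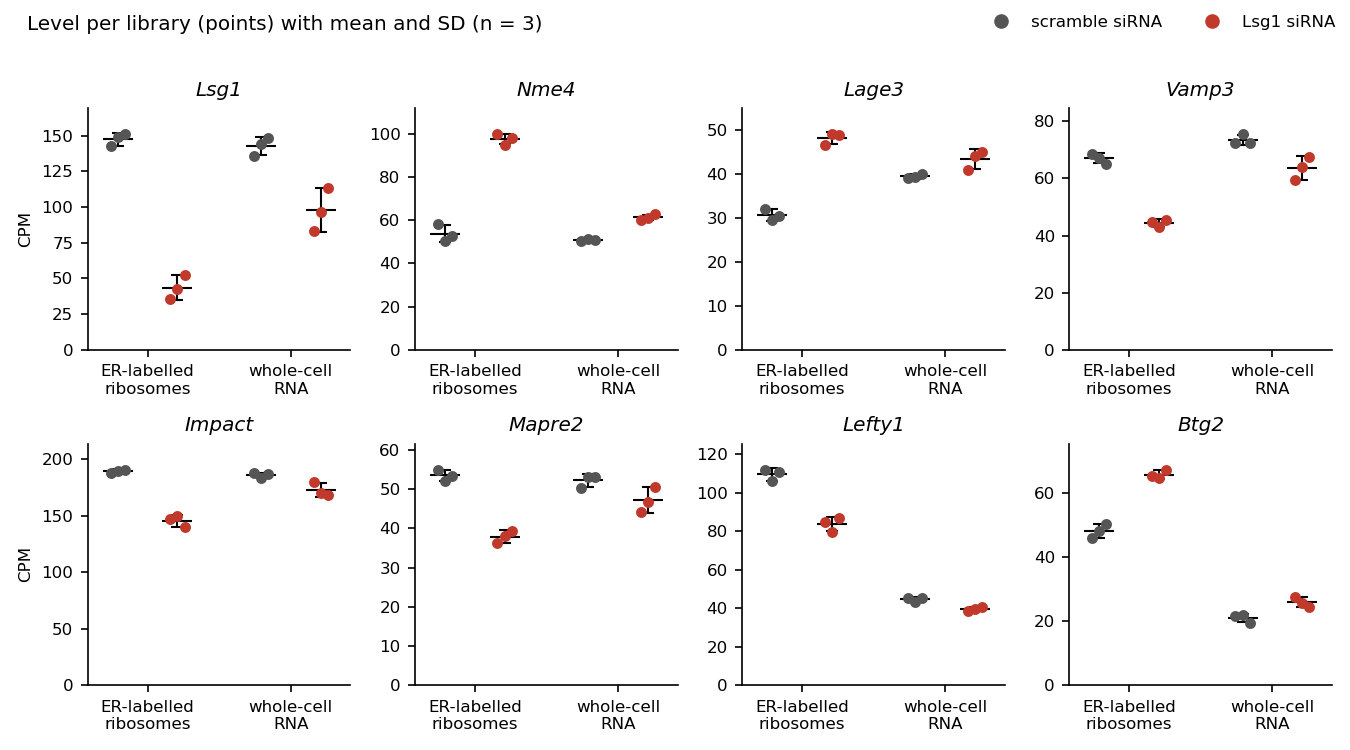
CPM of 8 genes in each of the 12 libraries, with ER-labelled ribosomes on the left and whole-cell RNA on the right of each panel. Points are libraries, grey for scramble and red for Lsg1 siRNA, and bars are the mean and SD of 3. On ER-labelled ribosomes the colours do not overlap in any panel; for Nme4 the red points sit between 95.1 and 99.8 CPM and the grey points between 50.4 and 58.2 CPM.

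The 12 largest rises among protein-coding genes with at least 5 CPM included channels, receptors and other membrane proteins. After Nme4 and Lage3 came Cnga3, a subunit of a cyclic nucleotide-gated channel, which stood at 13.0, 11.7 and 12.1 CPM with scramble siRNA and at 19.4, 19.1 and 18.8 CPM with Lsg1 siRNA (log2 fold 0.64, SE 0.07). Cd80, the co-stimulatory ligand of T cells, rose from 6.73 to 9.91 CPM (0.56), and Robo4, a Slit receptor family member, from 10.3 to 15.2 CPM (0.56). Tap1, a subunit of the peptide transporter in the ER membrane that feeds MHC class I, rose by a log2 fold of 0.50. The same size of rise was found for Pon2, a membrane-bound lactonase, at 0.50, and for Dglucy, a mitochondrial D-glutamate cyclase, at 0.51. Ccdc194, a coiled-coil domain protein, rose by 0.51. Lpar6, a receptor for lysophosphatidic acid, rose by 0.49, Ly6a, the GPI-anchored surface protein Sca-1, by 0.48, and Serinc5, a multi-pass membrane protein, by 0.46. In each of these 12 genes all 3 Lsg1 siRNA libraries lay above all 3 scramble libraries, with an edgeR adjusted p from 5.0e-09 for Nme4 to 0.0052 for Ly6a. All 12 passed under every alternative tried, where the highest adjusted p was 0.045, for Ly6a.

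The 12 largest falls were led by Lsg1 and held enzymes, trafficking proteins and regulators of several compartments. Csgalnact2, a Golgi enzyme that starts chondroitin sulfate chains, stood at 9.76, 10.6 and 10.6 CPM with scramble siRNA and at 6.72, 6.13 and 6.41 CPM with Lsg1 siRNA (log2 fold -0.68, SE 0.07). Next came Vamp3, then Prss35, a secreted protease-like protein, at -0.57 and Prdm1, the transcriptional repressor Blimp-1 of germ cell specification, at -0.52. Mapre2, a protein that tracks growing microtubule ends, stood at 55.1, 52.1 and 53.5 CPM against 36.3, 38.1 and 39.5 CPM. All 3 knockdown libraries lay below all scramble libraries, and it fell by 0.50 on the log2 scale (SE 0.05), while the whole-cell log2 fold was -0.15 (difference between fractions -0.35, edgeR adjusted p = 0.098). Serpinb6c, a protease inhibitor, fell by 0.46 and Fhod3, an actin-nucleating formin, by 0.41. Acbd5, a peroxisomal membrane protein that tethers peroxisomes to the ER, fell by 0.40, as did Tgfbi, a secreted matrix protein, and Apobec2, a cytidine deaminase family member. The last of the 12 was Lefty1. Of these 12, all but Fhod3 passed under every alternative; without ER-bound Lsg1 replicate 2, Fhod3 had an edgeR adjusted p of 0.061.

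Of 53 genes known as p53 targets, 14 rose (26.4%, against 2.63% of all genes), none fell and 39 did not pass; 49 members lay above 0, and the median log2 fold was 0.12 against 0.01 over all genes. Btg2, an anti-proliferative cofactor of mRNA deadenylation, stood at 46.0, 48.1 and 50.5 CPM with scramble siRNA and at 65.3, 64.7 and 67.4 CPM with Lsg1 siRNA. Its lowest knockdown library was above its highest scramble library, a rise of 0.45 on the log2 scale (SE 0.05, edgeR adjusted p = 4.4e-05). Besides Btg2, Cd80 and Tap1, the members that rose were Plk2, a polo-like kinase of the stress response (0.31), Perp, a desmosomal membrane protein (0.29), Ddit4l, an inhibitor of mTORC1 (0.25), Abhd4, a lipid hydrolase (0.22), and the membrane proteins Eda2r (0.21), Epha2 (0.21), Jag2 (0.19), Slc19a2 (0.19) and Tnfrsf10b (0.15). Ptpn14, a phosphatase, rose by 0.21 and Aen, a nuclease of apoptosis, by 0.15. Several of the best known targets did not pass. Cdkn1a, the cell cycle inhibitor p21, stood at 53.3 CPM with scramble siRNA and 58.0 CPM with Lsg1 siRNA (log2 fold 0.12, edgeR adjusted p = 0.106). Leaving out ER-bound scramble replicate 2 left 8 risen targets, and leaving out ER-bound Lsg1 replicate 1, 2 or 3 left 9, 7 and 7. With the GC and length offset 15 rose and 1 fell. In whole-cell RNA no target passed, and the median was 0.07.

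RefSeq promoters (GRCm38.p6, from 250 bases before to 50 after a start) were searched for the p53 consensus, 2 adjacent half-sites with no spacer, intact cores and at most 2 mismatches, to see whether the risen targets share it there. The motif reads the same on both strands. Windows were given for 43 of the 53 targets, and 4 of these genes held a match (9.3%), against 0.189% of all 27025 genes with a window. These 4 sites are shown because they carry the textbook element, with the matched 20 bases in capitals and 5 bases on either side:
Cdkn1a, chr17:29090923-29090952, plus strand: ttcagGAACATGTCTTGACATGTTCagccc
Rps27l, chr9:66946291-66946320, plus strand: atggcGGGCTTGTTGAGACTTGTCCgggcg
Gtse1, chr15:85859940-85859969, plus strand: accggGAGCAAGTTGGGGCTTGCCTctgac
Ckap2, chr8:22185998-22186027, minus strand: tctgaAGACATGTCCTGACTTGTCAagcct
The sites begin 51, 117, 1 and 203 bases before a start of Cdkn1a, Rps27l, Gtse1 and Ckap2. None of the 4 genes passed the test: their log2 folds were 0.12, 0.11, 0.12 and 0.10, with edgeR adjusted p-values of 0.106, 0.148, 0.148 and 0.118. Of the 14 targets that rose, 12 had a window and none held a match within it. Sites outside these windows or with a spacer were not searched for.

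Feedback genes of FGF-ERK signalling and immediate early genes had rises and no fall. FGF receptors activate ERK in stem cells of this kind, and ERK induces its own inhibitors. Of 36 tested, 8 rose (22.2%, against 2.63% of all genes), none fell and 28 did not pass, with a median log2 fold of 0.13 and 0.05 in whole-cell RNA. Ccn1, a secreted matricellular protein, stood at 23.2, 24.7 and 25.2 CPM with scramble siRNA and at 33.2, 33.4 and 31.3 CPM with Lsg1 siRNA, groups that did not overlap (log2 fold 0.42, SE 0.05, edgeR adjusted p = 6.2e-05). Its relative Ccn2 rose by 0.25. The feedback inhibitors Dusp6, an ERK phosphatase (0.24), Spred1 (0.19), Spry2 (0.19) and Spry4 (0.18) rose, and so did Etv1 (0.20) and Etv4 (0.17), transcription factors induced by ERK. Leaving out any 1 library gave 6 to 9 risen members and no fallen one. The median was 0.07 without ER-bound scramble replicate 3. With the GC and length offset 9 rose and 1 fell, and across all settings tried up to 2 fell.

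Some mRNAs of the machinery that brings ribosomes to the ER rose by small amounts. Of 63 genes for targeting and translocation, 8 rose (12.7%, against 2.63% of all genes), 1 fell (1.59%, against 1.38%) and 54 did not pass. The median log2 fold was 0.08, and 0.00 in whole-cell RNA. Srprb, the membrane-anchored subunit of the signal recognition particle receptor, stood at 79.4, 80.2 and 80.7 CPM with scramble siRNA and at 92.8, 95.5 and 94.2 CPM with Lsg1 siRNA. The values within each siRNA were close together and the groups apart (log2 fold 0.23, SE 0.03, edgeR adjusted p = 2.5e-04). The other subunit of the same receptor, Srpr, was the member that fell, from 295, 286 and 303 CPM to 258, 256 and 260 CPM (log2 fold -0.19, SE 0.04, edgeR adjusted p = 0.0079). Sec61a1, the channel of the translocon, rose by 0.13, and Spcs2 and Sec11a, subunits of signal peptidase, by 0.15 and 0.13. Ncln (0.17), Tmco1 (0.18) and Wdr83os (0.17), factors that help multi-pass proteins into the membrane, rose too, as did Sgta, a cytosolic chaperone of tail-anchored proteins (0.15). Among 26 ribosome anchors and shaping proteins of the ER, 5 rose (19.2%), none fell, and the median was 0.06. Those that rose were Esyt1 at 0.21, Reep3 at 0.16, Arl6ip1 and Tmem33 at 0.15 and Lrrc59 at 0.12. Among 48 ER chaperones and genes of the unfolded protein response, 3 rose (6.25%) and none fell, with a list median of 0.06. Those that rose were Derl2 (0.17) and Derl1 (0.14), which act in the export of misfolded proteins, and Pdia3 (0.12), a disulfide isomerase. These counts hung on single libraries. Leaving out 1 library gave 1 (without ER-bound Lsg1 replicate 2) to 14 (without ER-bound scramble replicate 1) risen translocon genes, 2 without ER-bound scramble replicate 3, and moved the count by over 1.5 times for every library except replicate 3 of both whole-cell groups. The anchor and shape list kept 0 to 4 rises, moved that far by every library except ER-bound scramble replicate 1. The chaperone list kept 0 to 9, moved that far by every library, with 9 without ER-bound scramble replicate 1 and 0 without ER-bound scramble replicate 2 or 3 or ER-bound Lsg1 replicate 1 or 3.

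Larger families of membrane proteins had rises as well. Of 243 solute carriers outside the mitochondrial Slc25 family, 18 rose (7.41%, against 2.63% of all genes) and 1 fell (0.412%, against 1.38%), with a median log2 fold of 0.08. The risen carriers include Slc48a1, a heme transporter (0.32), Slc29a1, a nucleoside transporter (0.30), Slc26a2, a sulfate transporter (0.30), Slc7a7 (0.28) and Slc7a5 (0.21), amino acid transporters, Slc8b1, a sodium and calcium exchanger of mitochondria (0.27), Slc39a14, a zinc and iron importer (0.25), and Slc37a3 (0.22). The carrier that fell was Slc47a1, an exporter of organic cations (-0.20). Slc29a1 went from 364 to 449 CPM, the most abundant of the carriers named here apart from Slc7a5 at 471 and 544 CPM. Of 203 Tmem genes, a family named for its transmembrane segments only, 15 rose (7.39%) and none fell, with a median of 0.08. Tmem18 stood at 27.6, 27.6 and 25.7 CPM with scramble siRNA and at 35.1, 34.6 and 34.1 CPM with Lsg1 siRNA, with no overlap (log2 fold 0.36, SE 0.05, edgeR adjusted p = 6.6e-04). Tmem43, a protein of the inner nuclear membrane, rose by 0.31 and Tmem127, an endosomal regulator of mTORC1, by 0.28. The 44 Slc25 carriers of the mitochondrial inner membrane had 1 rise, the peroxisomal member Slc25a17 (0.16), and a median of 0.00. The median was 0.01 in whole-cell RNA for both the solute carriers and the Tmem genes. Leaving out ER-bound scramble replicate 2 or ER-bound Lsg1 replicate 1 or 2 gave 11, 11 and 8 risen carriers, and 5, 8 and 5 risen Tmem genes, of which 8 rose without ER-bound Lsg1 replicate 3. No carrier fell without ER-bound Lsg1 replicate 2 or 3. Slc25a17 kept its call without ER-bound scramble replicate 1 or whole-cell Lsg1 replicate 3 and lost it without any 1 of the other libraries.

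Secreted, matrix and surface proteins moved in both directions. Of 98 tested, 14 rose (14.3%, against 2.63% of all genes), 4 fell (4.08%, against 1.38%) and 80 did not pass, with a median of 0.05. Serpine2, a secreted protease inhibitor, stood at 45.1, 43.7 and 49.6 CPM with scramble siRNA and at 59.9, 60.8 and 63.7 CPM with Lsg1 siRNA, without overlap (log2 fold 0.41, SE 0.05, edgeR adjusted p = 2.2e-04). Its whole-cell log2 fold was 0.39. Cpz, a carboxypeptidase, rose by 0.43, the lysosomal membrane proteins Lamp2 and Lamp1 by 0.30 and 0.14, Gpc4, a GPI-anchored proteoglycan, by 0.26, Bmp4, a secreted ligand, by 0.23, and Icam1, an adhesion molecule, by 0.19. The 4 that fell are secreted signals of these cells. Trh, the precursor of thyrotropin-releasing hormone, stood at 288, 264 and 273 CPM with scramble siRNA and at 217, 213 and 216 CPM with Lsg1 siRNA. All knockdown libraries were lower (log2 fold -0.35, SE 0.04, edgeR adjusted p = 4.7e-05; whole-cell log2 fold -0.15). Fgf17, an FGF ligand, fell by 0.26 and Lefty2 by 0.21. The fibroblast or feeder list had no call and a median of 0.12 over 18 tested genes. The summed level of its 11 defining markers was 52.2 to 60.8 CPM with scramble siRNA. With Lsg1 siRNA that sum was 57.2 to 63.6 CPM, and Thy1 made up most of it in both groups. The part of this list in the rise of matrix genes was not tested. Leaving out ER-bound scramble replicate 2 gave 5 rises in the secreted list, and leaving out ER-bound Lsg1 replicate 1, 2 or 3 gave 5, 7 and 9, with 2 falls left without ER-bound Lsg1 replicate 2.

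Among Nodal pathway genes both inhibitors of the ligand fell. Nodal is a ligand of the Tgf-beta family, and Lefty1 and Lefty2 are secreted antagonists that it induces. Lefty1 stood at 112, 106 and 111 CPM with scramble siRNA and at 84.5, 79.8 and 87.0 CPM with Lsg1 siRNA, with no overlap (log2 fold -0.39, SE 0.04, edgeR adjusted p = 2.6e-05), with a whole-cell log2 fold of -0.17. Lefty2 went from 155 to 134 CPM. Id2, a target of BMP signals, fell by 0.35 on the log2 scale. In the list of 41 Nodal, Tgf-beta, BMP and Wnt genes there were 4 falls (9.76%, against 1.38% of all genes). Bmp4 was the only rise (2.44%, against 2.63%), 36 genes did not pass, and the median was 0.01. Without ER-bound scramble replicate 2, ER-bound Lsg1 replicate 2 or ER-bound Lsg1 replicate 3, 2 falls were left, and without ER-bound Lsg1 replicate 2 there was no rise. There were 2 rises without ER-bound scramble replicate 1 or 3 or ER-bound Lsg1 replicate 3.

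Of 37 regulators of naive pluripotency, 7 fell (18.9%, against 1.38% of all genes), none rose and 30 did not pass, with a median log2 fold of -0.06. Nanog went from 790.5 to 697 CPM (log2 fold -0.18, edgeR adjusted p = 0.030), and Tfcp2l1, a transcription factor downstream of leukemia inhibitory factor, from 196 to 170.3 CPM (-0.20). Prdm14, a repressor of primed genes, fell by 0.20, Fbxo15 by 0.19, Klf2 by 0.13, the threonine dehydrogenase Tdh by 0.11 and Dppa5a, an RNA-binding marker of the naive state, by 0.11. Fbxo15 stood at 329, 323 and 313 CPM with scramble siRNA and at 284, 284 and 279 CPM with Lsg1 siRNA, so that even a change of this size left no overlap (SE 0.03, edgeR adjusted p = 0.0019). Pou5f1 and Sox2 did not pass, with log2 folds of -0.07 and -0.05. Without ER-bound scramble replicate 2, 3 members fell, and without ER-bound Lsg1 replicate 1, 2 or 3, 4, 3 and 2. With the GC and length offset 9 fell and 2 rose. Of 26 genes of the 2-cell-like state, a rare state of stem cell cultures marked by the Zscan4 cluster, 4 rose (15.4%, against 2.63% of all genes), with a median of 0.30. Those that rose were Zscan4d at 0.46, Zscan4e at 0.44, Gm8300 at 0.34 and Ddit4l. Their levels were low, 7.21 against 9.94 CPM for Zscan4d, and Zscan4 copies share sequence, so reads can be split among them. The summed level of 6 defining markers was 15.3 to 18.5 CPM with scramble and 19.9 to 23.3 CPM with Lsg1 siRNA. Leaving out ER-bound scramble replicate 1 or ER-bound Lsg1 replicate 3 left 1 risen gene of that list, and leaving out ER-bound Lsg1 replicate 2 or whole-cell scramble replicate 1, whole-cell scramble replicate 3 or whole-cell Lsg1 replicate 2 left 2. The lists of 25 primed and 18 primitive endoderm genes had 1 call each, a fall of Zic2 (-0.24) and a rise of Amn (0.29). There were 2 primed falls without ER-bound scramble replicate 3 or ER-bound Lsg1 replicate 3, and Amn kept its call without ER-bound scramble replicate 3, whole-cell Lsg1 replicate 1 or whole-cell Lsg1 replicate 3 and lost it without any 1 of the other libraries.

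Some mRNAs of abundant cytosolic proteins fell. Of 19 cytosolic aminoacyl-tRNA synthetases, which charge transfer RNAs, Sars, Lars and Aars fell (log2 folds of -0.12, -0.11 and -0.09), none rose, and 17 of 19 had a negative log2 fold, with a median of -0.07. Sars stood at 356, 345 and 339 CPM with scramble siRNA and at 320.6, 322 and 317 CPM with Lsg1 siRNA. Its groups did not overlap, and the fall was small (edgeR adjusted p = 0.014). Of 30 cytosolic heat shock and chaperonin genes, 4 fell: Hspa1b (-0.23), Dnaja1 (-0.11), the mitochondrial chaperonin Hspd1 (-0.10) and Stip1 (-0.09), with a list median of -0.05. Of 36 glycolysis and hypoxia genes, Bnip3l, a mitophagy receptor (-0.19), the phosphofructokinases Pfkp (-0.17) and Pfkl (-0.11), and the aldolase Aldoa (-0.10) fell, with a median of -0.06. None of these lists had a rise, and their whole-cell medians were 0.00, -0.01 and -0.02. The shares of falls in them were 15.8%, 13.3% and 11.1%, against 1.38% of all genes. Of 63 abundant cytosolic genes, 8 fell (12.7%, against 1.38% of all genes) and 2 rose (3.17%, against 2.63%). The tubulins Tubb3 (-0.24), Tubb2b (-0.20) and Tuba1a (-0.19) and the glutathione reductase Gsr (-0.19) led the falls. The membrane-associated GTPases Rac1 (0.22) and Arf1 (0.14) rose. Without ER-bound Lsg1 replicate 2, 0 synthetases, 0 heat shock, 1 glycolysis and 4 abundant cytosolic genes fell. Without ER-bound scramble replicate 2 or ER-bound Lsg1 replicate 1, 1 synthetase and 0 heat shock genes fell, and 4 and 5 abundant ones. Rises in the abundant list numbered 1 or 2 whichever library was left out. Without ER-bound scramble replicate 3, 0 heat shock and 2 glycolysis genes fell, and without ER-bound Lsg1 replicate 3, 4 abundant ones. Leaving out whole-cell scramble replicate 2 left 0 heat shock falls, and leaving out whole-cell Lsg1 replicate 1, 2 or 3 left 2.

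Among eIF2 kinases and their regulators the call was for Impact, an inhibitor of the kinase Gcn2. It stood at 187, 189 and 191 CPM with scramble siRNA and at 147, 149.7 and 139 CPM with Lsg1 siRNA. The scramble values were close together and all 3 knockdown values well below them (log2 fold -0.38, SE 0.03, edgeR adjusted p = 6.8e-06). In whole-cell RNA the log2 fold was -0.11, and the difference between fractions had an edgeR adjusted p of 0.053. The other 11 of 12 genes in that list did not pass, but 2 fell without ER-bound scramble replicate 3, ER-bound Lsg1 replicate 1 or whole-cell Lsg1 replicate 1. Of 39 targets of Atf4, the transcription factor that the phosphorylation of eIF2 favours, Phgdh, the first enzyme of serine synthesis, fell (-0.15) and the amino acid transporter Slc7a5 rose (0.21), with a median of -0.05. Each direction holds 2.56% of the list, near the 2.63% risen and 1.38% fallen of all genes. Without ER-bound scramble replicate 3, 6 Atf4 targets fell, and without whole-cell Lsg1 replicate 1 or 3, 4 and 3.

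The mRNAs of the ribosome and of its assembly changed little. Of 28 late maturation factors of the 60S subunit, Lsg1 and Dnajc21, a J-domain protein of the same pathway (log2 fold -0.12, edgeR adjusted p = 0.012), fell and 26 did not pass. Dnajc21 stood at 202, 199 and 204 CPM with scramble siRNA and at 186, 182 and 187 CPM with Lsg1 siRNA, which did not overlap, but had an edgeR adjusted p of 0.074 without ER-bound Lsg1 replicate 2. Without Lsg1 the folds of that list lay between -0.12 and 0.10. No call was made among 85 cytosolic ribosomal proteins (median 0.01), 78 mitochondrial ribosomal proteins (0.01), 53 translation factors (0.00), 20 genes of ribosome quality control (0.00) and 13 genes of the 60S stalk and its export (0.01). Of 65 nucleolar assembly factors, Nop16 (0.22) and Rrp1 (0.11) rose, a share of 3.08%, near the 2.63% of all genes. Nop16 passed under every alternative, while Rrp1 lost its call without any 1 library except ER-bound scramble replicate 1 (highest adjusted p 0.339). The cytosolic ribosomal proteins had 1 rise without ER-bound scramble replicate 1 and 1 fall without whole-cell scramble replicate 3. The medians of these 7 lists, from late 60S factors to nucleolar ones, changed sign between settings and stayed between -0.04 and 0.03. Ribosomal protein genes share sequence with pseudogenes, so their counts are less certain.

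**Figure D3:**
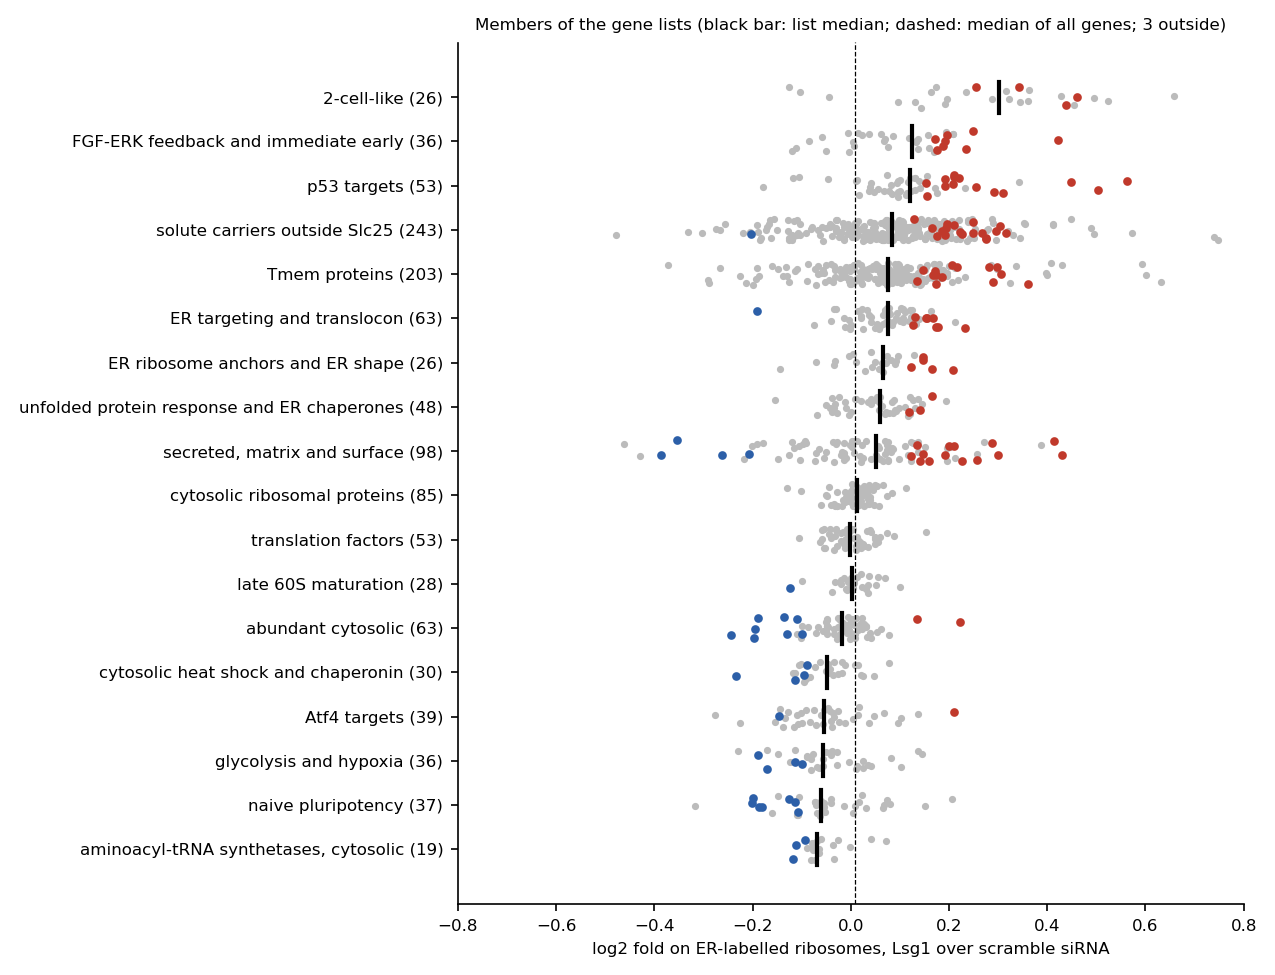
Log2 fold on ER-labelled ribosomes for every tested member of 18 gene lists, with the number of members in brackets; red and blue points passed the threshold, grey ones did not, black bars are list medians and the dashed line is the median of all genes. The medians of membrane and secreted protein lists sit to the right of it, ribosomal proteins and translation factors on it, and synthetases, naive pluripotency and glycolysis genes to the left; 3 members lie outside the axis.

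Smaller numbers passed in the remaining lists. Of 51 DNA replication and cell cycle entry genes, 4 rose (7.84%, against 2.63% of all genes) and none fell. E2f2, a transcription factor of the entry into S phase, stood at 31.8, 34.1 and 36.5 CPM with scramble siRNA and at 44.8, 46.1 and 45.6 CPM with Lsg1 siRNA, with no overlap (log2 fold 0.42, SE 0.05, edgeR adjusted p = 6.2e-05). Ccne2 (0.17), Ccne1 (0.16) and Rrm2 (0.12) rose as well, but 1 rise was left without ER-bound scramble replicate 2 or 3 or ER-bound Lsg1 replicate 1, 2 or 3, and 2 without whole-cell scramble replicate 1 or 2 or whole-cell Lsg1 replicate 1 or 2. Of 37 genes of cholesterol and fatty acid synthesis, 4 rose, among them the sterol sensor Scap (0.19), Fads1 (0.15) and Elovl6 (0.12), which encode membrane proteins, and the cytosolic enzyme Acly fell (-0.12). No rise was left without ER-bound scramble replicate 2 or ER-bound Lsg1 replicate 1 or 2, 1 without ER-bound scramble replicate 1 or ER-bound Lsg1 replicate 3, and 2 without replicate 2 of either whole-cell group. No fall was left without ER-bound scramble replicate 2 or 3, whole-cell scramble replicate 2 or ER-bound Lsg1 replicate 1 or 2, and there were 2 without ER-bound scramble replicate 1, whole-cell scramble replicate 1 or 3 or ER-bound Lsg1 replicate 3. Of 69 lysosome and autophagy genes, Lamp2, Ctsd, a protease of the lysosome (0.20), and Lamp1 rose, while the regulators Tfeb (-0.20) and Deptor (-0.17) fell. There were 5 rises without ER-bound scramble replicate 1 and 1 without ER-bound scramble replicate 2 or 3 or ER-bound Lsg1 replicate 1 or 2. There was 1 fall without ER-bound scramble replicate 2 or 3, whole-cell scramble replicate 2 or ER-bound Lsg1 replicate 2 or 3. Ctsd and Tfeb passed under every alternative. Of 28 interferon and double-stranded RNA sensing genes, Ifitm1 (-0.28) and Oas1a (-0.26) fell, Oas1a not without ER-bound Lsg1 replicate 1. Tnrc6a, a scaffold of the siRNA effector complex, fell by 0.23 among 17 genes of RNA interference. Nuf2 (0.16) rose among 45 mitotic genes, but not without ER-bound scramble replicate 2 or ER-bound Lsg1 replicate 2. Psmc1 (0.11) rose among 49 proteasome genes and lost its call whichever library was left out. Rbm38 (0.16) rose among 19 upstream genes of the p53 pathway, but not without ER-bound scramble replicate 2 or 3, ER-bound Lsg1 replicate 2 or 3, whole-cell scramble replicate 1 or 2 or whole-cell Lsg1 replicate 2. Of 94 nuclear respiratory chain genes, 3 rose (3.19%) and 2 fell (2.13%), near the 2.63% and 1.38% of all genes. There were 8 rises without ER-bound scramble replicate 1 and 0 or 1 without any 1 of the other libraries (0 without ER-bound scramble replicate 3), and 0 to 3 falls with 1 library left out, 2 being kept without whole-cell scramble replicate 1. Of 373 Zfp genes 2 rose and 2 fell (0.536% each). No Zfp rise was left without ER-bound Lsg1 replicate 2 or 3 and 1 without ER-bound scramble replicate 2 or 3. Zfp falls numbered 9 without ER-bound scramble replicate 1, 4 without whole-cell scramble replicate 3 or whole-cell Lsg1 replicate 1, 0 without ER-bound Lsg1 replicate 1 or 2, and 1 to 3 without any 1 of the others. There was no call among 16 DNA methylation and Tet genes, 13 mitochondrially encoded mRNAs and 30 nuclear noncoding RNAs. Histone genes of the replication-dependent class, 56 of which were tested, had a median of -0.42 with no call. That median was -0.01 without ER-bound scramble replicate 3, in which the list stood 0.60 above the scramble mean.

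The medians of the lists can be followed in each library. For the p53 targets they were -0.05, 0.00 and 0.06 in scramble replicates 1 to 3, against the scramble mean, and 0.10, 0.13 and 0.14 in the Lsg1 siRNA replicates. For the translocon list they were 0.04, -0.02 and -0.02 against 0.12, 0.07 and 0.05. In both lists every knockdown library lay above every scramble library. The chaperone list did not separate: scramble replicate 1 stood at 0.05 and Lsg1 siRNA replicate 3 at 0.01. Nor did the secreted, matrix and surface list, at 0.02 and -0.0008 in the same libraries. The cholesterol synthesis list and the lysosome and autophagy list overlapped as well. For the synthetases the scramble libraries stood at 0.00 and the knockdown libraries at -0.09, -0.05 and -0.06, and for naive pluripotency at -0.01 to 0.01 and at -0.08, -0.05 and -0.06. These lists and members were followed with the results of the same libraries known, so the separation is a description.

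**Figure D4:**
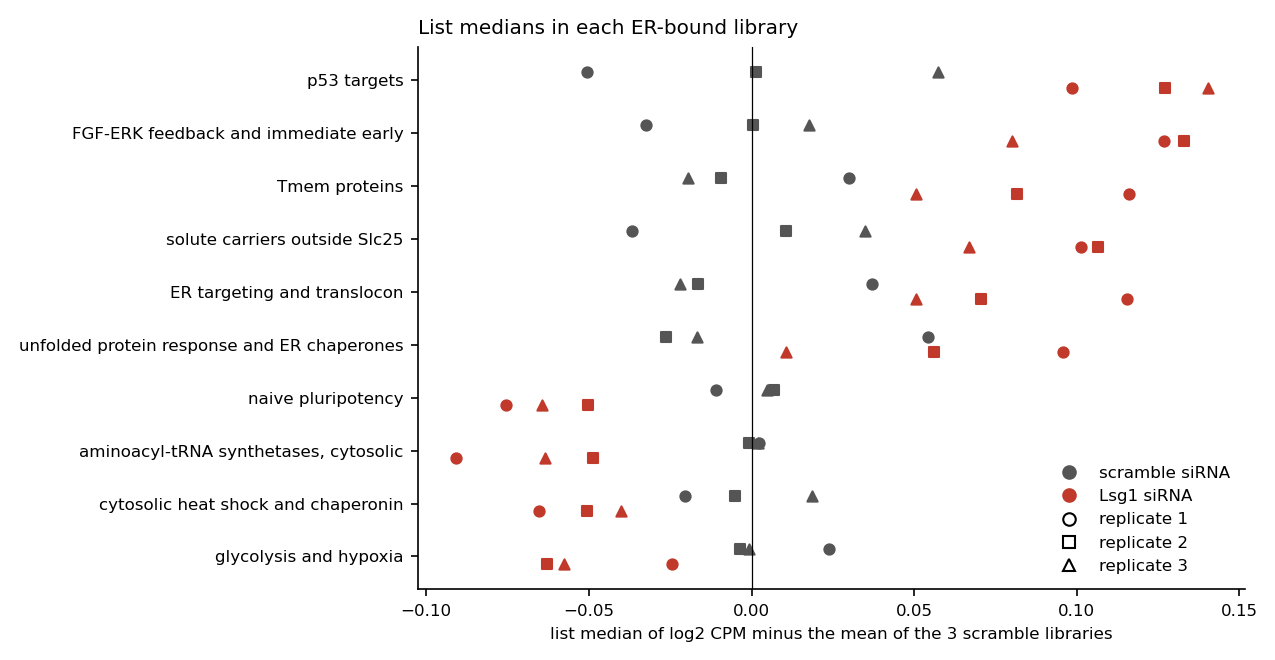
Median over each list of log2 CPM minus the mean of the 3 scramble libraries (horizontal axis), for each ER-bound library; grey is scramble and red Lsg1 siRNA, and the shapes are replicates 1 to 3. The colours are apart for p53 targets, with red at 0.10 to 0.14 and grey at -0.05 to 0.06, and overlap for ER chaperones.

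In whole-cell RNA of the same lysates most of the called genes had values of the same sign and smaller size. No gene passed there (0% called by edgeR, smallest adjusted p 0.221, with 731 genes at an unadjusted p under 0.05 and 5 called by DESeq2). Among genes that rose on ER-labelled ribosomes, 86.5% were positive in whole-cell RNA (median log2 fold 0.05), and among those that fell 93.5% were negative there (median -0.06). Over all genes tested 51.1% were positive. The 2 sets of libraries come from the same cultures, so differences between cultures are shared by both, and the ER-bound values of these genes were selected for passing. Serpine2 (0.41 on ER-labelled ribosomes, 0.39 in whole-cell RNA), Ddit4l (0.25 and 0.33), Plk2 (0.31 and 0.33) and Dglucy (0.51 and 0.50) had values of similar size in both fractions. Tmem18 (0.36 and 0.04), Slc7a5 (0.21 and 0.01) and Esyt1 (0.21 and 0.00) had whole-cell values near 0. None of these 7 passed the test of the difference between fractions, in which the SE of the difference was 0.06 for Slc7a5 and 0.09 for Serpine2. That test did not pair the fractions by culture.

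**Figure D5:**
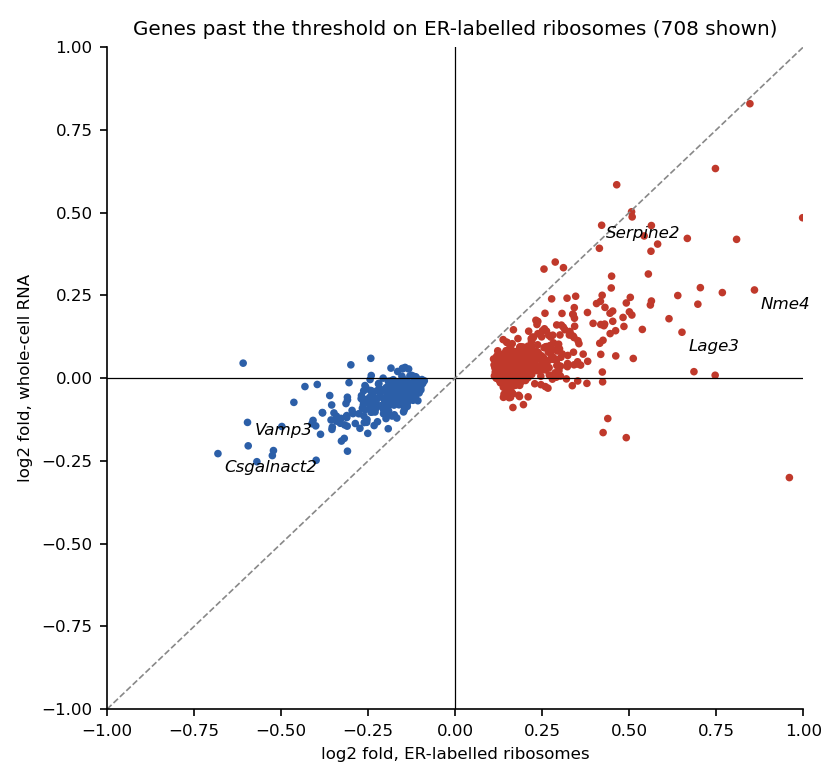
Log2 fold in whole-cell RNA (vertical axis) against log2 fold on ER-labelled ribosomes (horizontal axis) for 708 of the 710 genes past the threshold on ER-labelled ribosomes; red rose and blue fell, and the dashed line marks equal values. Lsg1 and 1 low-count gene lie outside the axes. Most red points have a positive and most blue points a negative whole-cell value, and few lie on the dashed line.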

How the data were processed

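Whole-cell and ER-ribosome-bound poly-A RNA of 12 libraries was prepared with a directional kit and sequenced as read pairs, per the labels. The authors deposited raw HTSeq counts per gene. Per the submitters' processing notes, the tools were STAR 2.7.9a, HTSeq 0.11.2 and DESeq2, and the build was GRCm39. The annotation release and the use of strand were not given in the sources used here, so antisense and overlapping genes are uncertain. The 5 summary lines of each table were left out; of the reads they hold, those without a feature made up 2.65% to 5.26% of a library. Counts came to 38092178 to 56522114 per library, above the target number of read pairs in the labels, and it is not known whether read ends were counted singly.

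The 55416 gene IDs were named through GENCODE M21, which is on an older assembly (GRCm38); 94.08% matched, with 99.51% of counts. CPM were scaled by TMM. Genes left by filterByExpr were tested with edgeR 4.0.16 in R 4.3.3 (quasi-likelihood F-test; the biological coefficient of variation was 4.42% and 8 residual degrees of freedom were left), with 1 mean per group over all 12 libraries, so that the spread is shared, and Benjamini-Hochberg adjustment at 0.05. The SD over 3 replicates holds counting and culture error. A separate contrast tested the difference of the siRNA effect between fractions. It took the 12 libraries as independent, although both fractions came from the same lysates. What a culture shares between its fractions was therefore not modelled, and the SE of a difference does not allow for it. The test on ER-labelled ribosomes was checked on simulated data with 200 changed genes. Counts were drawn independently for each library, from each gene's mean and the spread estimated by the same kind of model. Lysates shared between fractions and the order of the replicates were not simulated, so the error rate in the real data may differ. Of changes of 1.2-fold it found 54%, of 1.5-fold 88% and of 2-fold 100%, and it called 4 unchanged genes. Many changes of 1.2-fold or less may therefore not have passed.

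Genes are named by a rule: Lsg1, the 12 largest rises and the 12 largest falls among named protein-coding genes past the threshold with at least 5 CPM in the higher group and 1 direction across the 3 pairs of equal number, genes past the difference test, and 3 members per list with the smallest p. Further members are named to complete a list and were chosen after their values were seen; some members are not reported here. All members and lists were chosen with earlier results of these data known, so lists are described by counts and medians without a test of their own. The siRNA sequence was not used here.

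The settings varied were the scaling (DESeq2 size factors, totals), the low-count filter (none, or a stricter one of 2 CPM in 3 libraries), the tool (DESeq2 1.42.0, limma-voom with limma 3.58.1), only the groups compared, a replicate block with and without an offset for GC content and transcript length (5-df splines), removal of ribosomal and mitochondrial genes, and each library left out. Added after seeing the data were that offset without the block and leaving out both libraries rich in ENSMUSG00000119584. Promoter sequences came from RefSeq (GRCm38.p6). Python 3.11.15 with matplotlib 3.10.9 drew the figures.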

Additional observations from a re-analysis of the deposited data

Results flagged for a closer look

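The effect of Lsg1 siRNA differed between ER-labelled ribosomes and whole-cell RNA for 4 genes by the test of that difference (edgeR's quasi-likelihood test, adjusted over all genes). The log2 fold on ER-labelled ribosomes minus that in whole-cell RNA was 0.59 for Nme4 (adjusted p = 4.5e-04) and 0.51 for Lage3 (adjusted p = 0.0013), and both were higher in all 3 knockdown libraries of either fraction. It was -1.22 for Lsg1 (adjusted p = 0.0013) and -0.39 for Vamp3 (adjusted p = 0.026), which were lower in all 3 knockdown libraries of either fraction.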

How the results depend on the processing

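Of 710 genes past the threshold on ER-labelled ribosomes, the count was 375 with only the groups compared, and between 290 and 854 with 1 library left out, falling by over 1.5 times without ER-bound scramble replicate 2 (312), ER-bound Lsg1 replicate 1 (367), ER-bound Lsg1 replicate 2 (290) and ER-bound Lsg1 replicate 3 (432). Leaving out both libraries rich in ENSMUSG00000119584 gave 521, and other settings without the replicate block gave 657 to 918. The share of rises, 65.5%, was lower in most settings: 51.6% to 59.7% with 1 library left out, 50% without a filter (364 of 728), 52.5% and 54.1% with the GC and length offset with and without the block, 57.6% with only the groups compared, 58.9% without both rich libraries and 59.5% with the stricter filter. It was 62.7% to 66.7% in the other settings except library totals (71.2%). In whole-cell RNA the 0 calls became 26 without a low-count filter, 5 with DESeq2, 2 with only the groups compared, 4 without both rich libraries, 1 with the GC and length offset, and 0 to 3 with 1 library left out. The 4 genes that differed between fractions became 59 without a filter, 18 with DESeq2, and 3 to 8 with 1 library left out. Only 3 of the 4 kept their call without ER-bound scramble replicate 2 or ER-bound Lsg1 replicate 1 or 2. The same held without whole-cell scramble replicate 1, 2 or 3 or whole-cell Lsg1 replicate 2 or 3. Each time the call lost was a fall, that of Lsg1 or of Vamp3. The cause of these shifts was not tested. Of 96 named genes, 54 passed on ER-labelled ribosomes in all 24 alternatives, and none changed direction in any of them; calls were lost in 308 of 2304 gene and setting combinations.

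The replicate numbers were not taken as a pairing, because the rule asked for an r over 0.1 in every pair of equal number. On ER-labelled ribosomes, the deviations of equal numbers from their group mean had an r of 0.17, 0.01 and 0.14 across genes. For replicates 1 and 3 these were the highest values of any pairing, while scramble replicate 2 was most like Lsg1 replicate 3 (0.03). The numbers may thus pair the libraries in part. With the replicate number as a block, 1463 genes passed on ER-labelled ribosomes, 8 in whole-cell RNA and 24 in the difference; with the GC and length offset added to the block, 1872, 13 and 69. All 710 genes were among the 1463.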
